A study of Mus musculus with 2 samples.

Results

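Lamins and proteins of the inner nuclear membrane were followed as 8 genes, Lmnb1, Lmnb2, Lmna, Lbr, Tmpo, Emd, Sun1 and Sun2, which were found by their symbols among the 32285 genes of each count matrix. The cells were E14 mouse embryonic stem cells of 129/Ola background, grown in serum with leukaemia inhibitory factor. One group, control, was transfected with a control small interfering RNA, and the other, sonKD, with a small interfering RNA against Son, which encodes a scaffold protein of nuclear speckles that takes part in splicing. Both groups went through the same lipid transfection and were harvested 24 hours later, frozen, thawed and sorted on the viability dye 7-AAD before droplet barcoding. Each group was 1 library of 1 cell line, so there is no replicate, no difference below has a replicate check, and the library and the knockdown cannot be told apart. The 8 genes were chosen by family, with Lmnb2 selected on its log2 ratio between the cells of these libraries, so the levels and ratios in cells are given as a description. The labels name different models of NextSeq sequencer in different fields.

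The lamina is a meshwork of intermediate filament proteins under the inner nuclear membrane. B-type lamins, encoded by Lmnb1 and Lmnb2, stay attached to the membrane through a farnesyl group, while Lmna gives lamin A and lamin C by alternative splicing. Stem cells of the early embryo are known for much B-type lamin and little A-type lamin, and Lmna increases as cells differentiate. Lbr binds B-type lamins and heterochromatin, Tmpo and Emd carry the LEM domain that binds the chromatin protein BAF, and Sun1 and Sun2 connect the lamina with the cytoskeleton through the LINC complex.

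The promoters of 3 members are shown because these genes took the lowest ratio, the highest ratio and one of the closest relations to S phase transcripts in the results that follow. They run from 250 bases before to 50 bases after the RefSeq start site on GRCm38.p6, 5′ to 3′ on the gene's own strand. Lmnb2 is at chr10:80918196-80918495 on the minus strand, Emd at chrX:74254437-74254736 on the plus strand and Lbr at chr1:181842352-181842651 on the minus strand, where the RefSeq start lies 645 bases inside the gene as GENCODE draws it. Capitals mark the CCAAT box (CCAAT), the GC box (GGGCGG), and the CHR element of many cell cycle genes (TTTGAA), each searched on both strands, and the E2F core (GCGGGAA), which none of these 3 held.
Lmnb2: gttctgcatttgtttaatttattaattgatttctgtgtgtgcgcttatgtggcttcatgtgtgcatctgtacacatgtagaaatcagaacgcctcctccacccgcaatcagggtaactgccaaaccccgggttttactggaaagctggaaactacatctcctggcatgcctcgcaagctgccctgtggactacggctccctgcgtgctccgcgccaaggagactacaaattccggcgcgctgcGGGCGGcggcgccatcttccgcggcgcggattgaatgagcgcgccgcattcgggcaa
Emd: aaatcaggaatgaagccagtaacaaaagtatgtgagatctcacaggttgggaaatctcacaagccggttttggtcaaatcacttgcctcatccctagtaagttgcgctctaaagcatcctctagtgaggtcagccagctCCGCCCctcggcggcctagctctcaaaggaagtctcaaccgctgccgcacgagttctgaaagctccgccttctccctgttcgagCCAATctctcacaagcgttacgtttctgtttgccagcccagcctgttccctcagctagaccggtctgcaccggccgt
Lbr: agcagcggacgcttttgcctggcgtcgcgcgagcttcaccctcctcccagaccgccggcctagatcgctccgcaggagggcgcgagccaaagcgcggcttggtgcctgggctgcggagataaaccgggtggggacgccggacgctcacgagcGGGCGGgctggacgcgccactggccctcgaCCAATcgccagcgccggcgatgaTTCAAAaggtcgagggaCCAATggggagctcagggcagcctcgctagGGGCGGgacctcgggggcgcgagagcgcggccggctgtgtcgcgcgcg
The Lmnb2 promoter held 1 GC box and no CCAAT box in 55.3% GC, with 24 CpG dinucleotides. That of Emd held 1 GC box and 1 CCAAT box, with 15 CpG in 53.7% GC. The Lbr promoter held 2 GC boxes, 2 CCAAT boxes and 1 CHR element, with 42 CpG in 72.0% GC. Among all 32851 promoters of this length, 37.4% held a CCAAT box, 35.7% a GC box, 17.9% a CHR element and 4.60% an E2F core, at a median of 52.7% GC and 7 CpG. RefSeq gave 11 promoters for 7 of the 8 members, of which 7 held a CCAAT box, 7 a GC box, 3 a CHR element and 1, a promoter of Tmpo, an E2F core. A match of letters is a description and not a site of binding.

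Cells were barcodes with 2500 UMIs or more, 1000 genes or more and no more than 10% of UMIs from mitochondrial genes, a UMI being the tag that marks 1 captured molecule. This left 4978 control cells with a median of 7737.5 UMIs and 2731 sonKD cells with a median of 11612 UMIs, together 40902904 and 32032551 UMIs, and 2 barcodes occurred in both libraries. Of barcodes past the UMI and gene minimums, 11.2% in control (95% interval 10.3 to 12.0) and 27.9% in sonKD (26.5 to 29.3) were over the mitochondrial limit. Son itself was at 169 CPM (UMIs of the gene per 1000000 UMIs of the library's cells) in control and 106 CPM in the sonKD library. All 8 stem cell markers checked, Pou5f1, Sox2 and Nanog among them, were at 10 CPM or more in both libraries. Of 10 fibroblast markers only Vim reached 10 CPM, and Col3a1, Postn and Lum were at 0 in both. Of 12 primitive endoderm markers, 4 reached that level in each library, and the 12 summed to 385 CPM in the control library and 372 CPM in the sonKD library. Sparc, at 224 CPM and 231 CPM, and Lamc1, at 121 CPM and 107 CPM, led this sum. Gata6 was at 0.71 CPM and 0.53 CPM, Gata4 at 2.81 and 2.34, and Sox17 at 0.07 and 0.12. Of 8 trophectoderm markers 2 reached 10 CPM in each library, with sums of 67.8 CPM and 90.3 CPM. Of 6 neuroectoderm markers 2 did, with sums of 118 CPM and 101 CPM.

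B-type lamins were unequal in level. Lmnb1 (ENSMUSG00000024590; GRCm38 chromosome 18, 56707813 to 56753424) was the most abundant of the 8 genes, with 11077 UMIs or 271 CPM in the control library (265.8 to 276) and 7530 UMIs or 235 CPM in the sonKD library (230 to 240). Lmnb2 (ENSMUSG00000062075; chromosome 10, 80901203 to 80918245) was at 20.1 CPM in the control library (18.8 to 21.5), from 823 UMIs, and at 9.90 CPM in the sonKD library (8.84 to 11.0), from 317 UMIs. Levels are UMI counts from a method that tags 3′ ends, and they were not divided by gene length. Whether intronic reads are among them is not given, and any part of gene length in the levels was not tested. The intervals here and below are exact and cover counting error only. The intervals of the libraries did not overlap for either gene, and the gap was much wider for Lmnb2.

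The log2 ratio of sonKD over control was -1.02 for Lmnb2 (-1.22 to -0.84), so that sonKD held 49.2% of the control level (43.1 to 56.1). For Lmnb1 it was -0.20 (-0.25 to -0.16), or 86.8% of control. Over 8063 genes whose mean of the libraries reached 10 CPM, here called the genes tested, although no significance test was possible, the median log2 ratio was -0.12, with the 5th percentile at -0.40 and the 95th at 0.25. Lmnb2 was number 4 from the lowest of these, whereas Lmnb1 was at percentile 29.0. The 3′ end of the longest Lmnb2 transcript shared 8.92% of its 31-base words with transcripts of other genes and that of Lmnb1 shared none. The part of these shared words in its counts was not tested.

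Lmna (ENSMUSG00000028063; chromosome 3, 88480147 to 88509956), whose gene-level count cannot tell lamin A from lamin C, lay between the B-type lamins in level. It was at 55.0 CPM in the control library (52.8 to 57.3) from 2250 UMIs and at 60.4 CPM in the sonKD library (57.7 to 63.2) from 1935 UMIs. Its log2 ratio was 0.14 (0.05 to 0.22), at percentile 89.9 of all genes tested, with intervals that did not overlap.

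Set against each other within a library, which needs no library total, the lamins stood in different proportions. There were 13.5 Lmnb1 UMIs for each Lmnb2 UMI in control and 23.8 in sonKD. Lmnb2 made up 6.92% of B-type lamin UMIs in control (6.47 to 7.39) and 4.04% in sonKD (3.61 to 4.5), a log2 ratio of -0.78 (-0.96 to -0.59). For each Lmnb2 UMI there were 2.73 Lmna UMIs in control and 6.10 in sonKD. Of all UMIs of the 3 lamins, Lmna held 15.9% in control (15.3 to 16.5) and 19.8% in sonKD (19.0 to 20.6), while Lmnb1 held 78.3% and 77.0%. The Lmnb1 to Lmna ratio was also lower in sonKD, by a log2 change of -0.34 (-0.44 to -0.24).

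**Figure D1:**
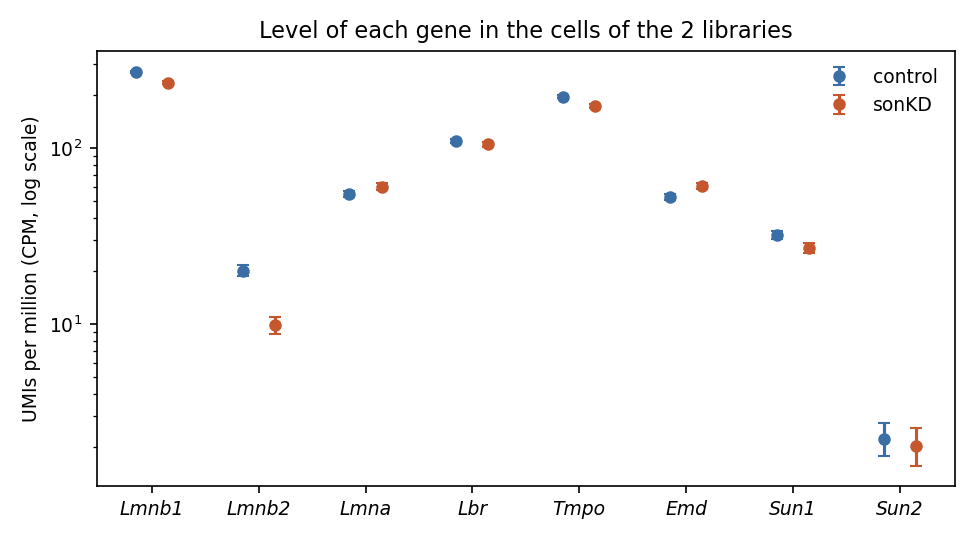
Level of each of the 8 genes in the cells of control and sonKD, in CPM on a log axis; points are the library values and bars are exact 95% Poisson intervals, which cover counting error only. Lmnb1 is highest and Sun2 lowest in both libraries, and the widest gap between libraries is that of Lmnb2, from 20.1 to 9.90 CPM.

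The lamin partners of the membrane differed little between the libraries. Lbr (ENSMUSG00000004880; chromosome 1, 181815335 to 181843046), a lamin B receptor that is also a sterol reductase, was at 109 CPM in the control library (106 to 113) and 105 CPM in the sonKD library (101 to 109). Its log2 ratio of -0.06 (-0.13 to 0.004) included 0 and became 0.03 with TMM factors, which scale by the bulk of genes, and 0.01 without mitochondrial and ribosomal protein genes. Tmpo (ENSMUSG00000019961; chromosome 10, 91147571 to 91181315), whose products are the LAP2 proteins, was the member closest to Lmnb1 in level, at 196 CPM (192 to 201) and 173 CPM (169 to 178). The Tmpo log2 ratio was -0.18 (-0.23 to -0.13), at percentile 34.5, so its library values did not overlap but its ratio was close to the median of all genes.

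Emd (ENSMUSG00000001964; chromosome X, 74254687 to 74261548), which encodes emerin, had the highest ratio of the members. It was at 52.8 CPM in the control library (50.6 to 55.1) and 60.9 CPM in the sonKD library (58.2 to 63.7), a log2 ratio of 0.21 (0.12 to 0.30) at percentile 93.6. Emd and Lmna thus exchanged places in the order of levels, and in neither library were their intervals apart. Some annotated Emd transcripts end in sequence that other genes share, 23.9% of their 3′ words, while the longest transcript shared none.

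Sun1 (ENSMUSG00000036817; chromosome 5, 139200637 to 139249840) was at 32.0 CPM in the control library (30.3 to 33.8) and 27.1 CPM in the sonKD library (25.3 to 29.0), a log2 ratio of -0.24 (-0.37 to -0.12). Sun2 (ENSMUSG00000042524; chromosome 15, 79724070 to 79742536) was close to absent, with 91 UMIs or 2.22 CPM in the control library (1.79 to 2.73) and 65 UMIs or 2.03 CPM in the sonKD library (1.57 to 2.59). A difference in Sun2 was not detectable at this depth, since its log2 ratio of -0.13 had an interval of -0.61 to 0.34. Sun1 therefore supplied most UMIs of this pair of LINC components in both libraries. In the GENCODE annotation Lbr overlaps Gm26004 and Emd overlaps Gm14686 on the same strand, and the lamin genes overlap no other gene. A share of the Lbr and Emd counts may thus be uncertain, which was not tested.

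Of the 8 members, 7 had a mean of at least 10 CPM, Sun2 being the exception. Lmnb2 was the 1 member at or under 80% of its control level in sonKD, as were 10.2% of all genes tested, and 0 members were 25% or more above it, as were 3.5% of all genes. With TMM factors these shares of all genes were 4.60% and 5.57%, and without mitochondrial and ribosomal protein genes 5.31% and 5.13%, with Lmnb2 again the 1 member. At a fold of 1.5, Lmnb2 was the 1 member lower, beside 1.23% of all genes, and 0 were higher, beside 0.992%. The median log2 ratio of the 7 members was -0.18, beside -0.12 for all genes, and 5 of the 7 ratios were below 0, beside 74.9% of all genes. The values of these members other than Lmnb2 were within the range of the central 90% of genes.

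Barcodes that the cell filter left out give the ratio of each gene again, in other RNA of the same 2 libraries, which is no replicate. In barcodes over 10% mitochondrial UMIs, Lmnb2 was at 21.3 CPM in the control library and 12.1 CPM in the sonKD library, from 42 and 44 UMIs, a log2 ratio of -0.82 (-1.46 to -0.17). In near-empty droplets of 100 to 500 UMIs, which hold free RNA, it was at 10.7 CPM and 4.40 CPM, a log2 ratio of -1.28 (-1.67 to -0.90). The medians over all genes tested were -0.14 and -0.24 in these barcodes, and Lmnb2 was below them in each class. Over the mitochondrial limit, the upper bound of its interval was close to the median. Lmna was above those medians, at 0.20 (-0.13 to 0.53) in the first class and 0.22 (0.09 to 0.36) in droplets. Lbr, at -0.06 in cells, was at -0.47 in droplets (-0.60 to -0.34).

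**Figure D2:**
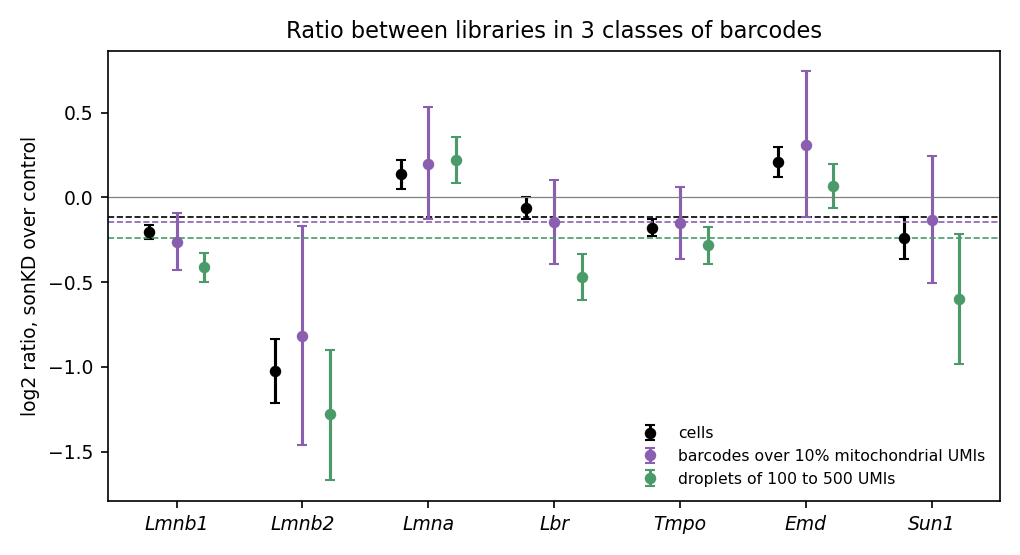
Log2 ratio of sonKD over control for 7 genes in cells, in barcodes over 10% mitochondrial UMIs and in droplets of 100 to 500 UMIs; bars are exact 95% counting intervals and dashed lines are the medians over all genes tested in each class. Lmnb2 is the lowest point in every class, at -1.02, -0.82 and -1.28, while Lmna is above 0 in each.

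The members also differed from each other in how they were spread over these barcodes. Sun1 was scarce in droplets, at a log2 ratio over cells of -2.04 in control (-2.30 to -1.79) and -2.40 in sonKD (-2.72 to -2.09), where the median gene was at -0.92 and -1.03. In barcodes over the mitochondrial limit Sun1 was higher than in cells, by 0.62 in control (0.31 to 0.92) and 0.72 in sonKD (0.47 to 0.97). Emd had the opposite profile, at -0.01 in control droplets and -0.15 in sonKD droplets, but at -0.64 (-1.01 to -0.29) and -0.54 (-0.78 to -0.30) in barcodes over the limit. Lmna was also well kept in droplets, at -0.28 and -0.19, and near its cell level over the limit. Tmpo was below its cell level in both classes, with -0.41 and -0.38 over the limit and -1.31 and -1.41 in droplets. The libraries differed for 2 members in droplets. Lbr was at -0.90 in control (-0.996 to -0.80) and -1.31 in sonKD (-1.42 to -1.20), and Lmnb1 at -0.97 (-1.04 to -0.91) and -1.18 (-1.26 to -1.11), with intervals that did not overlap. Son, the target of the knockdown, was at 0.84 in control and 0.82 in sonKD over the limit, but at -1.13 (-1.21 to -1.05) and -1.92 (-2.06 to -1.79) in droplets.

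**Figure D3:**
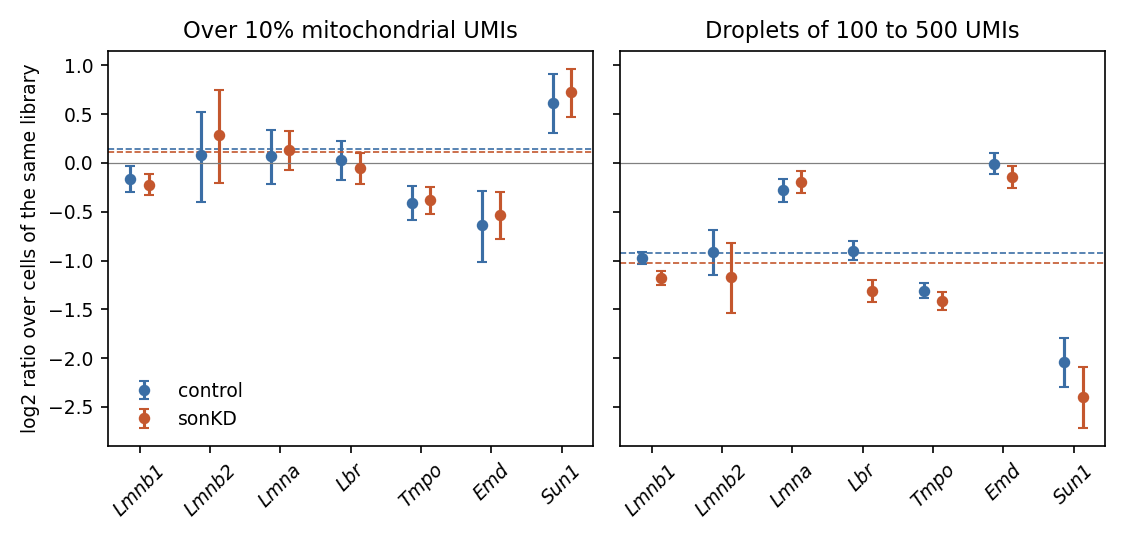
Log2 ratio of each gene's CPM over that in cells of the same library, for barcodes over 10% mitochondrial UMIs and for droplets of 100 to 500 UMIs; bars are exact 95% counting intervals and dashed lines are medians over all genes tested. Sun1 is highest of the 7 over the mitochondrial limit and lowest in droplets, Emd is lowest over the limit and highest in droplets, and control and sonKD show the same order at both ends.

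Because SON takes part in splicing, the structure of the genes was set beside their ratios. The longest coding transcript of Lmnb2 had 12 exons, a median intron of 164 bases (percentile 4.35 among 7881 genes tested with a coding transcript) and 57.6% GC (percentile 90.2). Lmnb1 had 11 exons but a median intron of 2184.5 bases, at percentile 66.9, and 53.3% GC. The B-type lamins were thus alike in exons and unlike in intron length. Emd had introns as short as those of Lmnb2, with a median of 174 bases (percentile 4.77), 6 exons and 53.4% GC, and a ratio above 0. Lmna had 12 exons, a median intron of 413 bases (percentile 14.9) and 59.3% GC (percentile 94.9), and a ratio above 0 as well. Short introns were thus found in the members with the lowest and the highest ratio. GC content was high in Lmnb2 and Lmna and less so in Emd, at percentile 71.4. Whether gene structure bears on the ratios was not tested. Tmpo and Lbr had median introns of 1741 and 1270 bases and 47.3% and 44.2% GC, where the medians of all genes were 1522.75 bases and 49.4%, and Lbr was at percentile 21.9 for GC.

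Neighbouring genes of Lmnb2 did not have its ratio. Timm13, a mitochondrial import chaperone, lies 233 bases downstream on the same strand and was at 317 CPM in the control library and 305 CPM in the sonKD library, a log2 ratio of -0.05 (-0.09 to -0.01). Gadd45b, a stress-response gene, starts 11827 bases away on the opposite strand and was at 38.6 CPM and 31.9 CPM, a log2 ratio of -0.27 (-0.39 to -0.16).

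**Figure D4:**
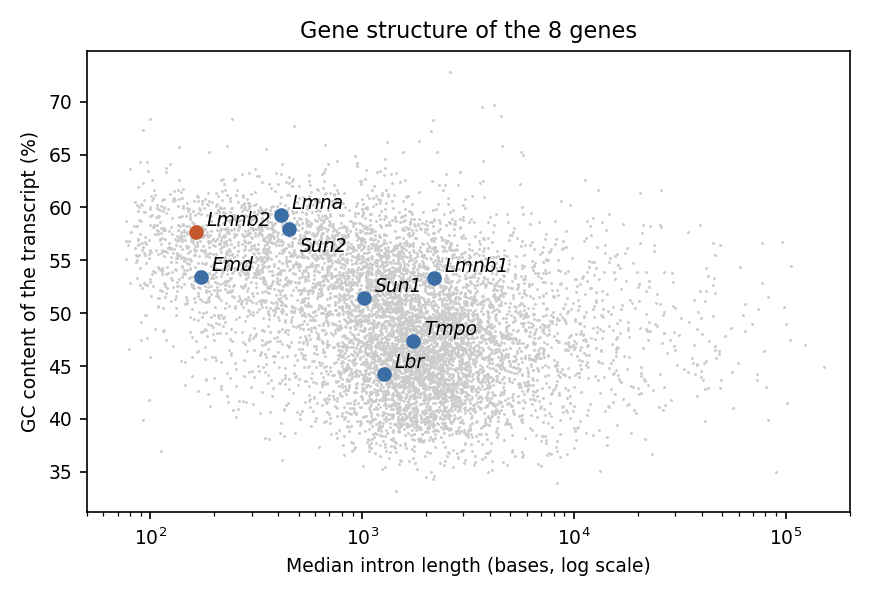
Median intron length (log axis, bases) against GC content of the longest coding transcript for the genes tested (grey) and the 8 genes (coloured, Lmnb2 in orange). Lmnb2 at 164 bases and Emd at 174 bases have the shortest introns of the 8, and Lmna has the highest GC content at 59.3%.

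Other genes of the nuclear envelope were described by lists. Of 14 further inner membrane and LINC genes, 8 were tested, 1 was at or under 80% of control in sonKD and 0 were 25% or more above it, with a median log2 ratio of -0.15. That gene was Lemd3, which encodes the LEM protein MAN1, at 20.3 CPM in the control library and 15.0 CPM in the sonKD library (log2 ratio -0.44, -0.61 to -0.28), and Ankle2, of the same domain family, followed at -0.19 (-0.33 to -0.05). Of 5 enzymes that process lamins, 4 were tested and 1 was lower, Zmpste24, the protease that cleaves prelamin A, at 28.2 CPM and 22.2 CPM (log2 ratio -0.34, -0.48 to -0.21). Fnta, a farnesyltransferase subunit, was at 57.3 CPM and 66.4 CPM (log2 ratio 0.21, 0.13 to 0.30). Lists this short cannot be set apart from the 10.2% of all genes that were as low.

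Of 7 chromatin partners of the envelope, all tested, 1 was lower and 0 higher, with a median log2 ratio of 0.06. The lower gene was Hdac3, a deacetylase that Tmpo and Emd products bind, at 24.9 CPM and 19.1 CPM (log2 ratio -0.39, -0.53 to -0.24), and Prr14, a tether of heterochromatin to the lamina, was at -0.15 (-0.33 to 0.04). Banf1, which encodes BAF, was at 214 CPM and 232 CPM (log2 ratio 0.12, 0.08 to 0.16). Of 30 nuclear pore genes in the matrix, 29 were tested, 3 were lower and 0 higher, beside 10.2% and 3.5% of all genes, so the count of lower genes was near the background. Their median log2 ratio was -0.12, as for all genes. The lower ones were Ndc1, a membrane anchor of the pore (-0.42, -0.55 to -0.30), and Nup160 (-0.36, -0.44 to -0.29) and Nup155 (-0.34, -0.43 to -0.25), which are scaffold nucleoporins. Of 9 envelope resealing genes, 8 were tested and 0 were past either limit, with a median of 0.02. Spast, a microtubule-severing enzyme, was at -0.29 (-0.41 to -0.17), and Vps4b, an ATPase of the ESCRT machinery, at 0.18 (0.11 to 0.25).

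To compare cells of unlike depth, 4000 UMIs were drawn at random from every cell, which left 4710 control and 2622 sonKD cells and put aside 268 and 109. Cells with an Lmnb1 UMI made up 63.1% in control (61.7 to 64.4) and 56.8% in sonKD (54.9 to 58.7). For Lmnb2 the shares were 7.18% (6.46 to 7.95) and 3.81% (3.11 to 4.62), a difference of -3.36 percentage points (-4.41 to -2.28). A Lmna UMI was found in 19.5% and 20.1% of cells, and the difference of 0.65 points (-1.27 to 2.59) was not detectable at this depth. Without thinning these shares were 80.4% and 83.6% for Lmnb1, 14.6% and 10.5% for Lmnb2, and 34.4% and 45.5% for Lmna, so Lmnb2 was found in fewer sonKD cells although those cells were deeper. No cell type without lamins was at hand as a background. The free RNA of droplets held Lmna at 45.3 CPM and 52.8 CPM, close to its level in cells. These values are shares of the UMIs in droplets and do not give the part of free RNA in a cell's count. How well single Lmna UMIs tell which cells express the gene was not tested.

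Shares for the other members stood in the order of their levels in control. Tmpo was found in 52.8% of thinned control cells and 48.0% of sonKD cells, a difference of -4.78 points (-7.18 to -2.37). Lbr was found in 34.5% and 31.6%, Emd in 19.9% and 22.5%, and Sun1 in 11.7% and 10.4%, where the Sun1 difference of -1.27 points (-2.75 to 0.26) was not detectable. Cells with a Sun2 UMI made up 0.79% in control (0.55 to 1.08) and 0.84% in sonKD (0.53 to 1.27).

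Counts of the lamins varied from cell to cell somewhat beyond counting noise, for which the variance would equal the mean. The variance was 1.17 times the mean for Lmnb1 in control and 1.18 times in sonKD, and the highest thinned cell held 9 UMIs. For Lmna it was 1.08 times in control and 1.18 times in sonKD. Emd and Sun1 were at 0.97 to 1.00 times in both libraries, so no unevenness beyond counting was seen at their low counts. Sun2 never passed 1 UMI in a thinned cell, which fixes its ratio just under 1, so its spread could not be resolved. At 1 Lmnb2 UMI in 6.77% of control cells and 2 or more in under 1%, its spread over cells could not be resolved.

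Correlations between members over cells were weak in thinned counts. Over the 28 pairs of members, the median Pearson r of thinned counts was 0.005 in control, from -0.02 for Lmnb2 with Sun1 to 0.07 for Lmnb1 with Tmpo. In sonKD the median was 0.005, from -0.05 for Lmnb1 with Sun2 to 0.05 for Lmnb1 with Lbr. Lmnb1 with Tmpo in sonKD depended on the setting, with an r of 0.04 here, 0.12 at 6000 UMIs and 0.17 on log counts without thinning. These points are cells of 1 library that share its depth, and weak correlations in sparse counts are no finding. Lmnb2 had an r of 0.008 with Lmnb1 and of -0.009 with Lmna in control. In sonKD the values were 0.04 and 0.004. Control cells with an Lmnb2 UMI held 1.12 Lmnb1 UMIs and those without held 1.07. In sonKD those with an Lmnb2 UMI held 1.11 Lmnb1 UMIs and those without 0.89, a log2 ratio of 0.32 (0.03 to 0.59) that rests on 100 cells with an Lmnb2 UMI.

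The genes nearest to each lamin over control cells, among 3003 or 3004 others whose mean reached 0.2 thinned UMI in both libraries, differed between the lamins. Lmnb1 was nearest to Hnrnpu, which encodes a nuclear matrix RNA-binding protein, with an r of 0.17 in control and 0.18 in sonKD, where it was again number 1. Caprin1 and Ncl followed with 0.15 and 0.14 in control, and 0.10 and 0.11 in sonKD. For Lmna the nearest were H2afz, Vim and Spp1, at 0.07 each, of which Vim, an intermediate filament gene as Lmna is, was number 11 in sonKD at 0.07. The nearest to Lmnb2, Atad2b, Stip1 and Calm2, had an r of 0.05 each in control, and -0.02, 0.02 and -0.01 in sonKD, so none of these 3 kept its place. The highest r of Lmnb2 with any of these genes was 0.05 in control, where 95% of genes were under 0.03. As the largest of 3004 values over sparse counts it is no finding, and neither is the change of place in sonKD.

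Each library's cells were then ordered by the summed UMIs of gene lists for cell states, and the 25% of cells at the top were set against the 25% at the bottom, 1177 control or 655 sonKD cells at each end. These ends are ranges of a sum and not cell types. By S phase transcripts, Lmnb1 went from 0.84 to 1.29 UMIs per thinned control cell, a log2 ratio of 0.62 (0.50 to 0.74), and from 0.67 to 1.18 in sonKD, a log2 ratio of 0.82 (0.65 to 0.99). Both were at percentile 99.6 of 2968 other genes, whose median was 0.08 and 0.12. Lbr went from 0.37 to 0.54 UMIs in control (log2 ratio 0.56, 0.38 to 0.74) and from 0.31 to 0.49 in sonKD (log2 ratio 0.64, 0.39 to 0.91). Lmnb2 had 84 UMIs at each end in control, a log2 ratio of 0.00 with an interval (-0.45 to 0.45) that lay below that of Lmnb1. In sonKD it had 25 against 27 UMIs, and its log2 ratio of 0.11 (-0.73 to 0.96) could not be told from the 0.82 of Lmnb1. Lmna was at 0.38 in control (0.12 to 0.63) and 0.06 in sonKD (-0.26 to 0.38). Tmpo was higher at the top in both libraries, by 0.23 (0.09 to 0.36) and 0.48 (0.28 to 0.68). Emd was at -0.03 (-0.29 to 0.22) and 0.42 (0.09 to 0.74). The shares of ribosomal protein UMIs moved with the S phase sum, from 22.1% to 19.8% in control and from 25.8% to 23.1% in sonKD, and their part in these ratios was not tested.

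Cells were also ordered by G2/M transcripts, from a list that holds none of the members. Sun2 went from 4 to 19 UMIs in control and from 4 to 11 in sonKD, too few to size a change. Lmnb2 went from 81 to 110 UMIs in control, a log2 ratio of 0.44 (0.01 to 0.87), and from 33 to 35 in sonKD, at 0.08 (-0.64 to 0.82). With 10% of cells at each end these Lmnb2 values were 0.12 in control and 0.74 in sonKD, so neither their size nor their order between libraries was stable. Tmpo was higher at the top by 0.28 in control (0.15 to 0.42) and 0.23 in sonKD (0.04 to 0.43), on the log2 scale. For Lbr the log2 ratios were 0.22 (0.04 to 0.40) and 0.53 (0.27 to 0.78), and for Lmnb1 0.24 (0.13 to 0.35) and 0.43 (0.26 to 0.60). The other genes had medians of 0.02 and 0.08. Lmna and Emd had intervals that included 0 in both libraries. Between the same ends Malat1, a nuclear RNA, went from 0.24% to 0.32% of UMIs in control and from 0.21% to 0.27% in sonKD, and ribosomal protein UMIs from 21.6% to 20.5% and from 25.8% to 23.4%. Their part in these ratios was not tested. Between the libraries, Lmnb2 was lower in sonKD by a log2 ratio of -0.81 (-1.40 to -0.25) at the top of the G2/M order. At the bottom the log2 ratio was -0.45 with an interval that included 0 (-1.08 to 0.15), close to the -0.38 of Lmnb1 there (-0.54 to -0.23). Whether the ratio differs along this order was not tested, and the Lmnb2 counts behind it were 33 to 110 UMIs.

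By p53 target transcripts, Lbr was lower in the cells at the top, with 0.52 against 0.38 UMIs in control, a log2 ratio of -0.45 (-0.63 to -0.27), and 0.46 against 0.33 in sonKD, a log2 ratio of -0.51 (-0.77 to -0.26). Lmnb1 was also lower there, by -0.31 (-0.42 to -0.19) in control and -0.42 (-0.59 to -0.25) in sonKD, beside medians of -0.07 over other genes in both libraries. Mitochondrial UMIs went from 3.62% to 4.37% in control and from 3.96% to 4.98% in sonKD between the same ends, and their part was not tested. By naive pluripotency transcripts, a list led by Dppa5a at 5027 CPM of control cells, Lbr was lower at the top, by -0.49 in control (-0.68 to -0.31) and -0.26 in sonKD (-0.51 to -0.002), and Lmnb1 by -0.24 (-0.36 to -0.13) and -0.23 (-0.41 to -0.06). By formative and primed transcripts, Lmnb1 was at -0.002 and -0.01, with intervals that included 0. Lmnb2 was higher at the top of that order in sonKD by a log2 ratio of 1.22 (0.31 to 2.20), from 15 against 35 UMIs, and by 0.18 in control (-0.28 to 0.64). Cells at the bottom of that order held at most 1 UMI of its list and those at the top at least 4, with ties split at random. No alternative setting was run on it. By naive transcripts Lmnb2 was at -0.42 in control (-0.88 to 0.03) and 0.06 in sonKD (-0.81 to 0.93). By p53 targets it was at -0.30 (-0.75 to 0.15) and 0.25 (-0.64 to 1.16).

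**Figure D5:**
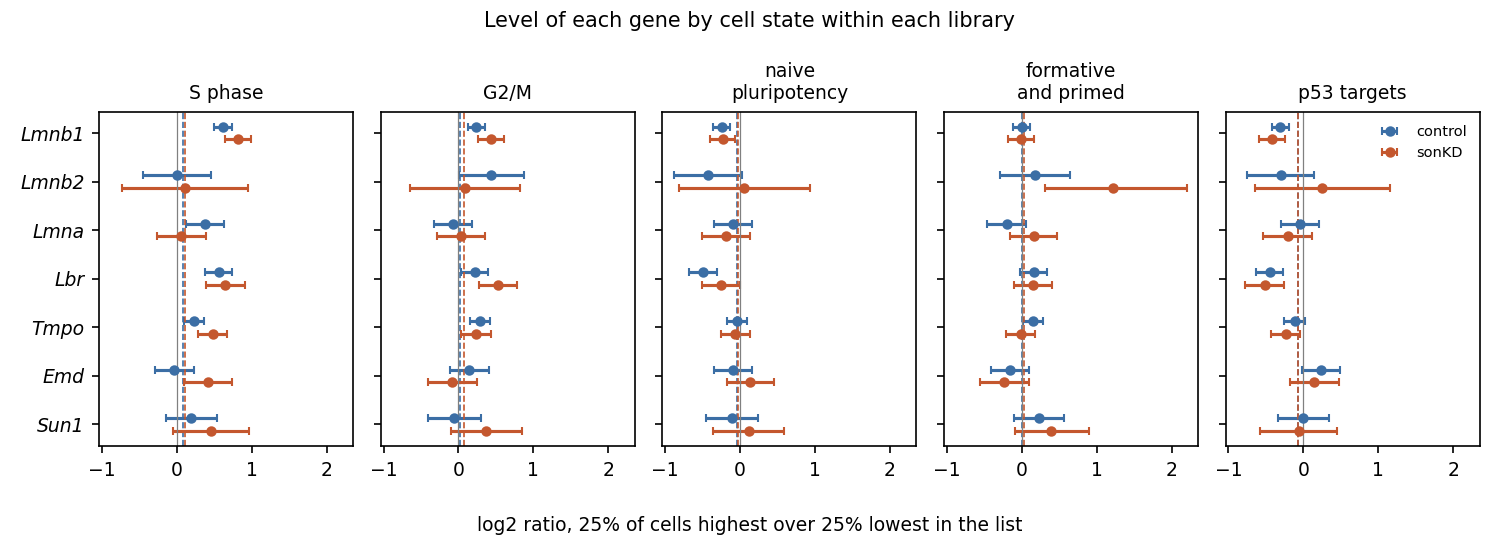
Log2 ratio of each gene between the 25% of cells highest and the 25% lowest in the summed UMIs of 5 gene lists, within control and within sonKD; bars are exact 95% counting intervals and dashed lines are medians over other genes. Lmnb1 and Lbr are to the right by S phase transcripts (Lmnb1 at 0.62 and 0.82) and to the left by p53 targets (Lbr at -0.45 and -0.51) in both libraries, while the intervals of Lmnb2 are wide.

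Cells of a library also differ in Son itself. Thinned control cells with a Son UMI, 2234 of them, held 0.079 Lmnb2 UMIs each and the 2476 without held 0.074, a log2 ratio of 0.08 (-0.22 to 0.39). In sonKD, 844 cells with a Son UMI held 0.051 and 1778 without held 0.033, a log2 ratio of 0.62 (0.02 to 1.21). That value rests on 100 sonKD cells with an Lmnb2 UMI, and no median over other genes was taken for this split. Lmnb1 was also higher in cells with a Son UMI, by 0.12 (0.04 to 0.20) in control and 0.16 (0.03 to 0.28) in sonKD, and Lbr by 0.16 (0.03 to 0.28) and 0.20 (0.01 to 0.39). A Son UMI in a cell can come from free RNA, which held Son at 77.1 CPM and 27.9 CPM.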

How the data were processed

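UMIs per gene and barcode were counted in 1 control and 1 sonKD library of E14 cells. The deposited values are raw UMI counts for every barcode, made with Cell Ranger 7.1.0 per the file headers, on mm10 per the submitters' processing notes. Which annotation was used, and whether intronic reads were counted, is not given in the sources used here. Counts were summed over cells and scaled to 1000000 (CPM). Log2 ratios set sonKD over control, with no pseudocount but with counts under 3 set to 3. Intervals are 95%: Poisson for levels, Clopper-Pearson for shares, conditional binomial for ratios, and root sums of squares for differences of shares. With 1 library a group no test was made. The members, gene lists and alternatives were chosen with earlier results of these data known. Named genes are the members, the 2 genes of each envelope list farthest from 0, the 3 genes nearest to each lamin, the neighbours of Lmnb2, Son and cell type markers. Other genes of a list past the fold, and those of the other observations, were named after their values were seen. Scrublet in scanpy 1.11.5 called 0.060% of control and 0.037% of sonKD cells as doublets, under 0.5%, so no doublets were removed, and removal of 3.98% and 2.20% by score was an alternative. TMM factors came from edgeR 4.0.16. Other alternatives were CPM without mitochondrial and ribosomal protein genes, the mean of CPM per cell, 5000 UMIs, 5% mitochondrial UMIs, other folds, filters and depths of thinning. The ratio and thinning code was tested on simulated data. Gene structure is from GENCODE M21 and promoters from RefSeq, both on GRCm38.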

Additional observations from a re-analysis of the deposited data

Results flagged for a closer look

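Lmna in near-empty droplets is given here because free RNA lies outside the main comparison and its level was above that of the control library. In droplets of 100 to 500 UMIs Lmna was at 52.8 CPM in the sonKD library (49.6 to 56.2), from 985 UMIs, and at 45.3 CPM in the control library (42.3 to 48.5), from 832 UMIs. Of the 8 members it was the 1 whose droplet interval in sonKD lay above that in control.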

How the results depend on the processing

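No paired analysis was possible because each group held 1 sample, and no replicate could be left out. For 61 results, 189 values were computed under alternatives, of which 154 stayed within the counting interval, or for counts within 1.5 times and for r within 0.05, 32 moved and 3 reversed. The 3 reversals came without thinning, where sonKD cells are deeper (medians of 11612 and 7737.5 UMIs), and gave differences in the percent of cells with a UMI of 3.17 points for Lmnb1, 9.59 for Lbr and 7.13 for Tmpo. Some other values changed sign without being counted as reversed. The Sun1 difference of -1.27 points (-2.75 to 0.26) was 3.69 points without thinning. The log2 ratio of Lmnb2 by p53 targets in sonKD was 0.25 (-0.64 to 1.16), and -0.77 at 6000 UMIs. At a thinning of 6000 UMIs the Lmnb2 difference in percent of cells was -6.35 points. A mean of at least 50 CPM left 0 members lower, since Lmnb2 is then not tested. The r of Lmnb1 with Tmpo in sonKD was 0.12 at 6000 UMIs and 0.17 on log counts without thinning; the cause was not tested. No scaling moved a log2 ratio of the 7 tested members by more than 0.09. TMM factors changed the sign of Lbr, and 4.60% of all genes were then at or under 80% of control and 5.57% were 25% or more above it, in place of 10.2% and 3.5%. Lmnb2 stayed the 1 member lower under each scaling and cell filter tried. Of the orders by cell state, only those by G2/M transcripts and p53 targets were run under alternatives. Depth limits Sun2, and Lmnb2 within cell states.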

Other observations

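The genes nearest to Lmna over sonKD cells were looked up after the values were seen. They were S100a6, Lgals1, Sfn, Ctsl and Lgals3, with a Pearson r of 0.17, 0.16, 0.12, 0.12 and 0.12 over 2622 thinned cells. S100a6 encodes a calcium-binding protein, Lgals1 and Lgals3 encode galectins, Sfn encodes the epithelial 14-3-3 protein and Ctsl a lysosomal protease. In control the same genes had an r of 0.06, 0.05, 0.03, 0.02 and 0.03, and S100a6 and Lgals1 were already number 5 and number 13 there. Cells with an S100a6 UMI were 21.8% of thinned control cells and 32.8% of sonKD cells. In sonKD those cells held 0.30 Lmna UMIs against 0.21 in the rest, a log2 ratio of 0.51 (0.27 to 0.74). In control they held 0.25 against 0.22, a log2 ratio of 0.23 (0.03 to 0.44), and whether the libraries differ in this was not tested.

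For the B-type lamins the values were near 0 or could not be resolved. Lmnb1 was at a log2 ratio of -0.06 (-0.19 to 0.07) between sonKD cells with and without an S100a6 UMI, and at -0.07 (-0.17 to 0.03) in control. Lmnb2 was at -0.03 in sonKD, from 33 and 69 UMIs, with an interval of -0.67 to 0.59 that holds the 0.51 of Lmna. Sfn gave Lmna a log2 ratio of 0.50 (0.23 to 0.77) in sonKD and 0.22 (-0.01 to 0.45) in control. Lgals1 gave 0.41 (0.18 to 0.64) and 0.14 (-0.05 to 0.32), and Lgals3 0.41 (0.13 to 0.68) and 0.21 (-0.01 to 0.44). Ctsl gave 0.16 in both, with intervals that included 0 (-0.07 to 0.39 in sonKD, -0.02 to 0.34 in control). S100a6 itself was at 102 CPM in the control library and 241 CPM in the sonKD library, and Lgals1 at 117 CPM and 175 CPM.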
